A study of Solanum lycopersicum with 18 samples.

Results

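Leaf RNA of Micro-TOM-EX (EX) was compared with that of Micro-TOM (MT) after 8 h of NaCl. The comparison rested on 6 of the 18 libraries of the study, 3 a side, chosen by their labels for material and hour. Micro-TOM is a small, fast-growing tomato that serves as a model plant. What distinguishes Micro-TOM-EX, its genotype, the ages of the plants and the NaCl dose are not given in the labels. The other 12 libraries were of EX and MT leaves before salt (0 h) and after 2 h of it, 3 in each group. All plants grew in pots of soil in a greenhouse with 16 h of light, per the labels, and every group at 8 h had received salt, so that the comparison held no unsalted leaves of the same hour. Single libraries are named by material, hour and replicate, as EX8r1. Nothing in the labels says whether replicate libraries stem from different plants. The p-values therefore cover only the spread between these samples, which may be technical.

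Salt reaches the leaf with the water stream, where sodium is toxic in the cytoplasm. Plant cells export it across the plasma membrane with antiporters of the SOS1 type, store it in the vacuole with NHX antiporters, and reload it from the sap with HKT transporters. Drought and salt also raise abscisic acid, which turns on dehydrins and proline synthesis. Ethylene, jasmonate and reactive oxygen species act beside it. The lists of genes described here follow these routes, together with defence, growth and leaf metabolism.

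The values are FPKM, fragment counts corrected for transcript length and for the number of mapped fragments. Total FPKM was 760915 to 770638 in EX libraries and 728817 to 749990 in MT libraries, and 16166 to 16600 genes in EX and 16276 to 16766 genes in MT reached 1 FPKM. Profiles correlated at r = 0.980 to 0.983 within EX, 0.980 to 0.987 within MT and 0.968 to 0.983 between the materials, where EX8r1 and MT8r3 were the most alike. At 0 h, the library MT0r2 held RNA of genes that no other MT library listed, and results that use its levels are given with and without it. It enters the calls at 8 h only through the shared spread, and these are given with it. Mesophyll markers (small subunits of RuBisCO and chlorophyll a-b binding proteins) were abundant, with summed levels of 6994 to 16937 FPKM in EX and 6793 to 18679 FPKM in MT, and 0 of 28 differed.

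At 8 h, 307 of 18402 tested genes differed between the materials, or 1.67% of them, with 182 higher in EX (0.989%) and 125 lower (0.679%). A gene was tested if it had at least 1 FPKM in at least 3 of the 18 libraries, and it is said to differ, rise or fall where its adjusted p (limma on log2(FPKM + 1), Benjamini-Hochberg over all tested genes) is under 0.05. At an unadjusted p under 0.05 there were 2310. The EX and MT libraries did not overlap for 306 of the 307, and for 20.2% of all tested genes. The log2 differences ran from -3.49 to 4.08 around a median over all genes of -0.02, and 99 genes rose and 57 fell at least 2-fold on this scale, which understates the change of low genes. In the higher material, 28 of the 307 averaged 100 FPKM or more and 103 less than 5 FPKM. The count was 163 when the 6 libraries were fitted alone, 188 without MT8r2 and 17 when they were fitted alone with the replicate number as a block, a fit added after the data were seen.

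**Figure D1:**
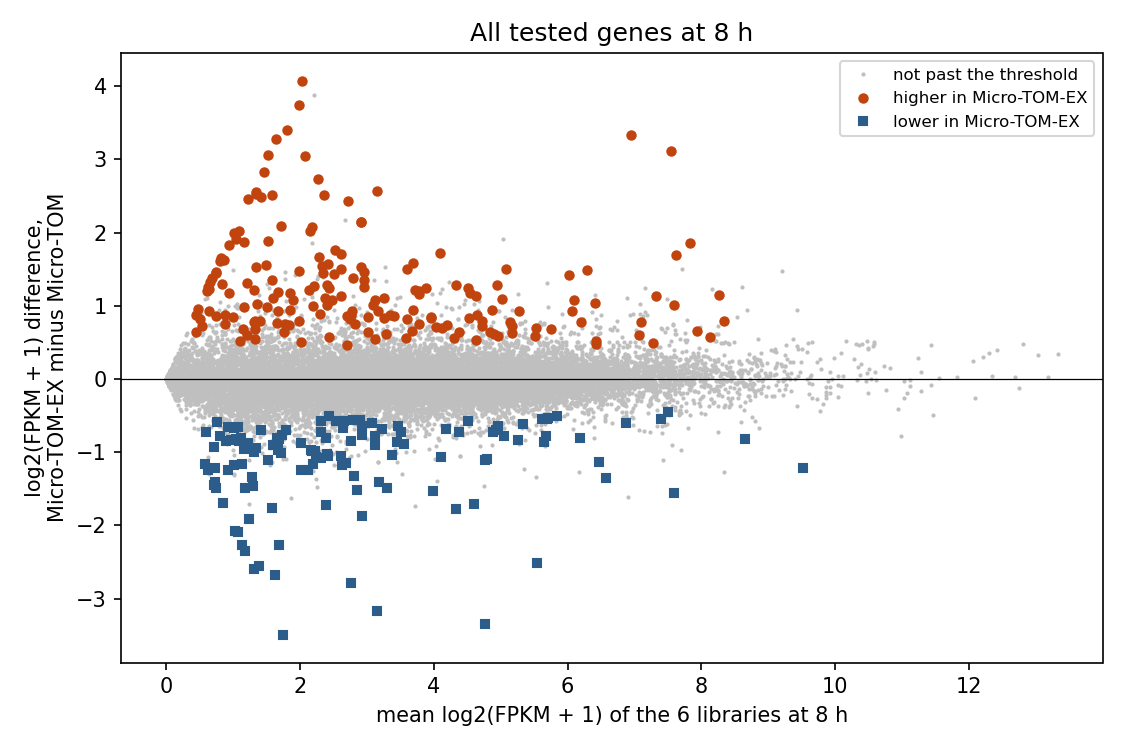
Each point is 1 tested gene at 8 h, with the mean log2(FPKM + 1) of the 6 libraries on the horizontal axis and the EX minus MT difference on the vertical axis. The 182 genes higher in EX are orange circles and the 125 lower in EX are blue squares.

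Among the best known defence genes, EX leaves held far more RNA of a defensin and of a PR-1 protein. DEFL1, a defensin-like protein (small antimicrobial peptides), had 466, 344 and 374 FPKM in EX libraries, against 44.2, 30.9 and 40.3 FPKM in MT libraries (log2 difference 3.33 ± 0.58 (SE), adjusted p = 0.0044). Every EX library was far above every MT library. PR1b1, a PR-1 type protein that accumulates in infected leaves, had 609.7, 338 and 796 FPKM in EX libraries, against 105, 46 and 50.4 FPKM in MT libraries (log2 difference 3.11 ± 0.59 (SE), adjusted p = 0.0101). Its groups did not overlap, though its spread was wide and the call was lost without MT8r2 (adjusted p = 0.064). In these bulk samples, fewer cells of a type and less RNA per cell cannot be told apart.

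The list of pathogenesis-related proteins had 83 tested members, of which 4 rose and 1 fell (6.02%), with a median log2 difference of -0.04 beside -0.02 over all genes. Besides DEFL1, the rises included a thaumatin-like protein of the PR-5 family, LOC104645134, with 10.2, 12.7 and 25.2 FPKM in EX libraries, against 4.14, 1.49 and 2.62 FPKM in MT libraries (log2 difference 2.15 ± 0.32 (SE), adjusted p = 0.00111), a call lost when the 6 libraries were fitted alone (adjusted p = 0.085). P4, a PR leaf protein, had 6.98, 6.22 and 11.4 FPKM in EX libraries, against 1.71, 1.23 and 0.75 FPKM in MT libraries (log2 difference 2.03 ± 0.32 (SE), adjusted p = 0.00205). The member that fell was also a PR-5 type protein, LOC101264959, named here after its values were seen, with 4.18, 6.45 and 4.3 FPKM in EX libraries, against 9.85, 12.9 and 28.9 FPKM in MT libraries (log2 difference -1.49 ± 0.29 (SE), adjusted p = 0.0108). That call was lost without EX8r1, with a pseudocount of 0.1 and when 8 h was fitted alone (adjusted p = 0.059, 0.061 and 0.19). Members of this family have near-identical copies, which the deposited values may not separate. WRKY factors, common regulators of defence, gave 0 calls among 52 tested, and disease resistance receptors 1 among 118, beside 1.67% over all tested genes.

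**Figure D2:**
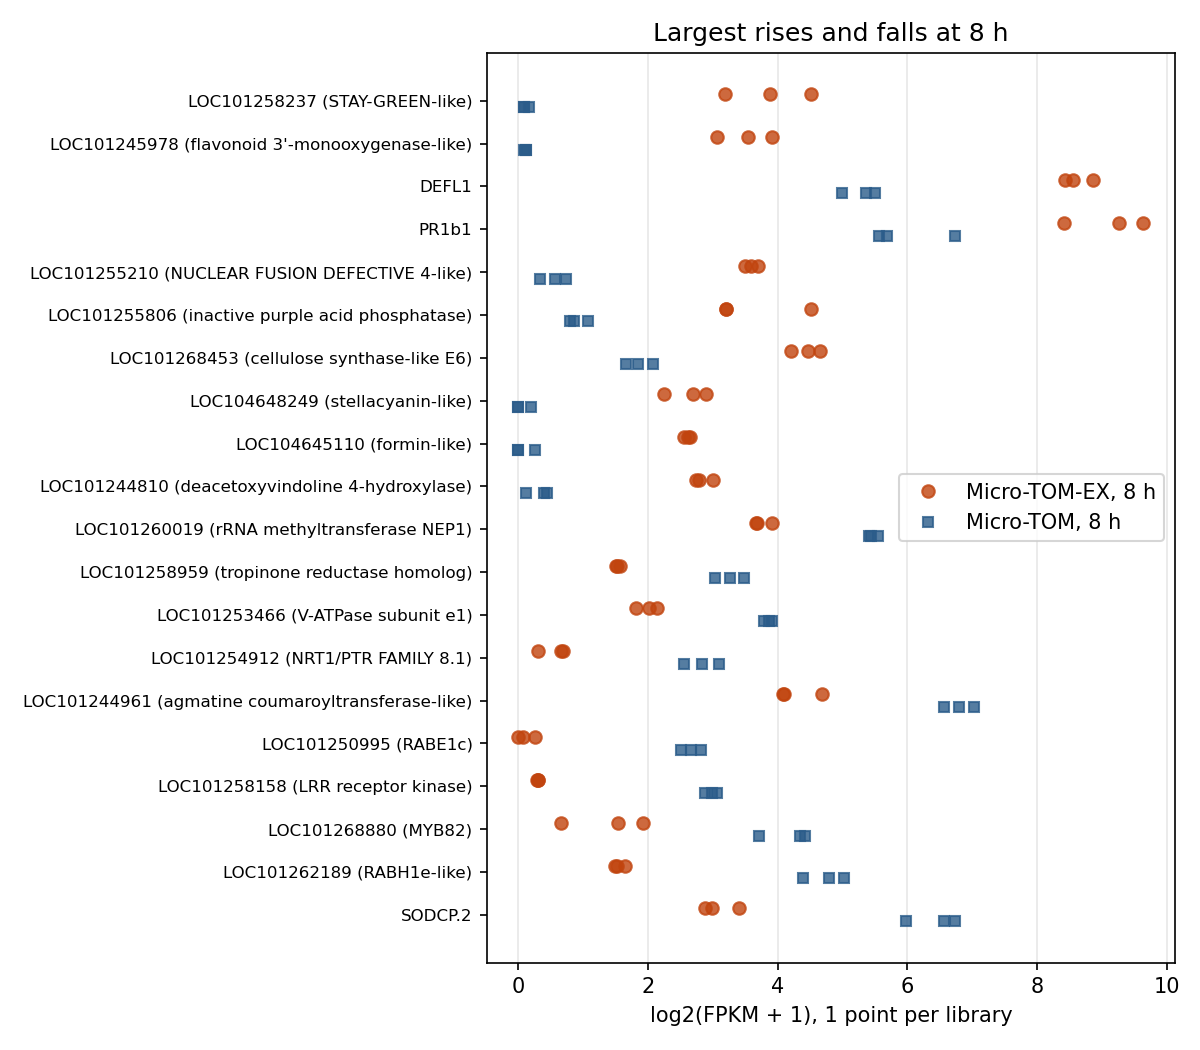
Level of the 10 largest rises and 10 largest falls with a descriptive name at 8 h, as log2(FPKM + 1) on the horizontal axis, with 1 orange circle per EX library and 1 blue square per MT library. The materials do not overlap for any of the 20 genes, which the choice of the genes required.

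Several other rises started from almost nothing in MT. LOC101258237, a STAY-GREEN-like protein of the family that removes magnesium from chlorophyll as it is broken down, had 8.08, 21.8 and 13.7 FPKM in EX libraries, against 0.06, 0.06 and 0.12 FPKM in MT libraries (log2 difference 3.75 ± 0.31 (SE), adjusted p = 3.64e-06). EX8r2 was the highest of the EX libraries. LOC101245978, a flavonoid 3'-monooxygenase-like cytochrome P450, had 7.4, 10.6 and 14.1 FPKM in EX libraries, against 0.06, 0.09 and 0.09 FPKM in MT libraries (log2 difference 3.40 ± 0.21 (SE), adjusted p = 1.15e-07). Every EX library was above 7 FPKM and every MT library at or below 0.09 FPKM. A second gene of the same name, LOC101267831, was lower in EX, with 9.93, 11.7 and 11.3 FPKM in EX libraries, against 25.3, 23 and 23.8 FPKM in MT libraries (log2 difference -1.07 ± 0.18 (SE), adjusted p = 0.0041). Of the 89 phenylpropanoid and flavonoid enzymes tested, 2 rose and this 1 fell (3.37%, beside 1.67% over all tested genes). The other rise was a partial phenylalanine ammonia-lyase, LOC101253989 (log2 difference 2.02), whose family opens the pathway.

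Other large rises had varied functions. LOC101268453, a cellulose synthase-like protein E6, had 21.1, 17.4 and 24.2 FPKM in EX libraries, against 2.61, 3.23 and 2.17 FPKM in MT libraries (log2 difference 2.58 ± 0.14 (SE), adjusted p = 4.56e-08). LOC101255806, a probable inactive purple acid phosphatase, had 8.2, 8.21 and 21.7 FPKM in EX libraries, against 1.1, 0.74 and 0.81 FPKM in MT libraries (log2 difference 2.73 ± 0.27 (SE), adjusted p = 2.05e-05), with EX8r3 well above the other EX libraries. LOC104645110, a formin-like protein of the family that nucleates actin filaments, had 5.13, 5.27 and 4.87 FPKM in EX libraries, against 0.19, 0 and 0 FPKM in MT libraries (log2 difference 2.52 ± 0.28 (SE), adjusted p = 5.68e-05), and it was listed at 0 in MT8r2 and MT8r3. The 2 others were LOC101255210, a NUCLEAR FUSION DEFECTIVE 4-like protein (log2 difference 3.05), and LOC101244810, named deacetoxyvindoline 4-hydroxylase (log2 difference 2.52). Of the 109 tested genes for wall loosening and pectin, 2 rose and 2 fell (3.67%, beside 1.67% over all tested genes).

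Some genes named for copper differed, in both directions. Higher in EX were some of those named as copper transporters or copper chaperones and 1 blue copper protein. Lower were 2 copper-zinc superoxide dismutases, enzymes that remove superoxide. This list was put together after the values had been seen. It had 38 tested members, of which 5 rose and 2 fell (18.4%, beside 1.67% over all tested genes), with a median log2 difference of 0.03. The other 31 did not pass. Nothing is read from that share, given how the list was made. Another copper transporter 6-like gene, LOC101262638, averaged 7.36 FPKM in EX and 6.87 FPKM in MT (adjusted p = 0.834). A further copper-zinc superoxide dismutase, LOC101264296, averaged 57.2 FPKM in EX and 50.1 FPKM in MT (adjusted p = 0.434). CCS, the copper chaperone of superoxide dismutase, averaged 23.9 FPKM in EX and 34.9 FPKM in MT (adjusted p = 0.150). The blue copper protein-like LOC101256838 averaged 15.8 FPKM in EX and 14.2 FPKM in MT (adjusted p = 0.680). LOC101247578, the chaperone ATX1, had 269.9, 238 and 309.5 FPKM in EX libraries, against 152, 119.8 and 133 FPKM in MT libraries (log2 difference 1.01 ± 0.12 (SE), adjusted p = 0.000191). CCH, a second copper chaperone named after its values were seen, had 449, 368 and 468 FPKM in EX libraries, against 234, 236 and 269 FPKM in MT libraries (log2 difference 0.79 ± 0.12 (SE), adjusted p = 0.000907). Both sets of libraries were tight and apart. The membrane carrier copper transporter 5, LOC101247486, also named after its values were seen, had 290.0, 188 and 241 FPKM in EX libraries, against 89.5, 95.5 and 142 FPKM in MT libraries (log2 difference 1.14 ± 0.20 (SE), adjusted p = 0.00458). LOC101260645, a copper transporter 6-like gene, had 9.42, 5.23 and 2.99 FPKM in EX libraries, against 0.1, 0.1 and 0.2 FPKM in MT libraries (log2 difference 2.49 ± 0.35 (SE), adjusted p = 0.000625). LOC104648249, a stellacyanin-like blue copper protein, had 6.47, 5.5 and 3.73 FPKM in EX libraries, against 0, 0.14 and 0 FPKM in MT libraries (log2 difference 2.55 ± 0.30 (SE), adjusted p = 0.000118). CCH and LOC101247486 did not pass when the 6 libraries were fitted alone (adjusted p = 0.059 and 0.12).

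SODCP.2, a chloroplast copper-zinc superoxide dismutase, had 6.96, 6.37 and 9.53 FPKM in EX libraries, against 106, 93.8 and 62.3 FPKM in MT libraries (log2 difference -3.34 ± 0.75 (SE), adjusted p = 0.0311). SODCC.1, a cytosolic form, had 379, 574 and 501 FPKM in EX libraries, against 952, 1275 and 1139 FPKM in MT libraries (log2 difference -1.22 ± 0.29 (SE), adjusted p = 0.0433). Neither gene overlapped between the materials, but neither call was stable. That of SODCP.2 was lost without any 1 of MT8r1, MT8r2, EX8r1, EX8r2 or EX8r3 (adjusted p = 0.060 to 0.13) and that of SODCC.1 without any 1 of the 6 libraries (0.058 to 0.20). SODCP.2 was also lost with a pseudocount of 0.1 (0.051). When the 6 libraries were fitted alone, SODCP.2 passed and SODCC.1 did not (0.064). The fit of 18 libraries takes in the spread at other hours, and SODCP.2 had 2.08, 40.1 and 49.9 FPKM in MT libraries at 2 h. Of the 40 antioxidant enzymes tested, 3 fell and 0 rose (7.5%, beside 1.67% over all tested genes). The third was a cytosolic ascorbate peroxidase, LOC101258987, with a log2 difference of -0.86, which was also lost without any 1 library (0.057 to 0.17). It did not pass when the 6 libraries were fitted alone either (0.052). Among 37 class III peroxidases 1 rose and 2 fell (8.11%). The rise was CEVI-1, with 4.2, 6.57 and 46.6 FPKM in EX libraries, against 1.97, 0.53 and 1.19 FPKM in MT libraries (log2 difference 2.52 ± 0.55 (SE), adjusted p = 0.0258). EX8r3 was far above the other EX libraries, and all 3 exceeded every MT library. The call was lost without MT8r2 or MT8r3 (adjusted p = 0.15 and 0.060) and when the 6 libraries were fitted alone (0.26).

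**Figure D3:**
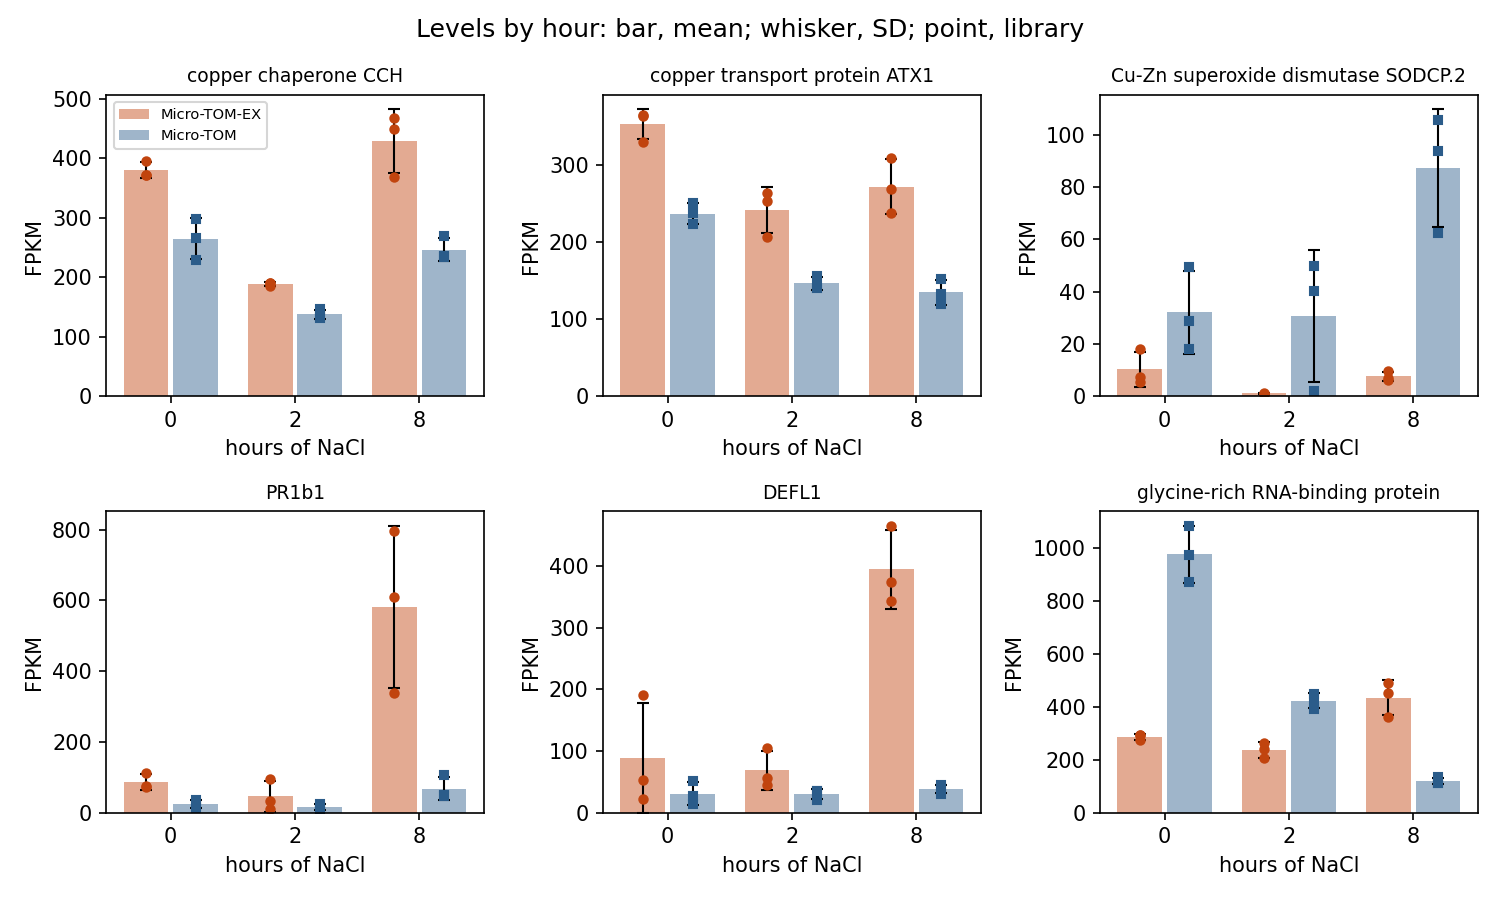
FPKM of 6 genes at 0, 2 and 8 h of NaCl, with EX in orange on the left and MT in blue on the right of each pair. Bars are means, whiskers SD and points single libraries (n = 3 each), and the glycine-rich RNA-binding protein is LOC101262262, whose order of the materials at 8 h is opposite to that at 0 h.

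Zinc transporters, a list also made after the values were seen, had 9 tested members and 2 rises (22.2%, beside 1.67% over all tested genes). Nothing is read from that share either. LOC100037509 had 33.7, 30.7 and 44 FPKM in EX libraries, against 19.8, 10.8 and 17.9 FPKM in MT libraries (log2 difference 1.14 ± 0.19 (SE), adjusted p = 0.00378), a call lost when the 6 libraries were fitted alone (adjusted p = 0.13). LOC101255999, a second zinc transporter, had 2.38, 1.94 and 5.48 FPKM in EX libraries, against 0.15, 0.05 and 0 FPKM in MT libraries (log2 difference 1.91 ± 0.25 (SE), adjusted p = 0.000372). It was close to 0 in every MT library.

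Most genes of salt transport and abscisic acid did not pass the test, which was so of tested genes in general (1.67% called). At that share, lists this small would hold few calls or none. The core salt genes gave 0 calls among 8 tested, with log2 differences from -0.05 to 0.33 and a median of 0.11. The largest was that of LOC100316877, named NCED5, which averaged 0.62 FPKM in EX and 0.29 FPKM in MT (adjusted p = 0.298). Its libraries did not overlap, as for 20.2% of all tested genes. LOC101263995, LOC101244293 and LOC101250107 had log2 differences of 0.19, 0.21 and 0.24 (adjusted p = 0.58 to 0.77). TAS14, the dehydrin that marks salt and abscisic acid in tomato, had 11909.8, 9386 and 7367 FPKM in EX libraries, against 7877, 9221 and 10765 FPKM in MT libraries, and these libraries overlapped (log2 difference 0.02 ± 0.93 (SE), adjusted p = 0.998). Its SE was the widest of the core salt genes. That SE rests on the spread in all 18 libraries, not only those of 8 h. At 0 h TAS14 had 152 FPKM in EX0r2, beside 2.15 and 4.14 FPKM in EX0r1 and EX0r3. The plasma membrane antiporter sos1 had 22.6, 20.2 and 20.3 FPKM in EX libraries, against 22.8, 21 and 21.8 FPKM in MT libraries (log2 difference -0.05 ± 0.13 (SE), adjusted p = 0.917). PRO2, which makes the proline precursor, had 45.3, 43.2 and 47.9 FPKM in EX libraries, against 47.9, 43 and 44 FPKM in MT libraries (log2 difference 0.02 ± 0.11 (SE), adjusted p = 0.98). HKT1;2, which retrieves sodium from the sap, stayed below 2 FPKM in all 6 libraries (log2 difference 0.01 ± 0.28 (SE), adjusted p = 0.998). Dehydrins and other late embryogenesis abundant proteins gave 0 calls among 23, abscisic acid synthesis and breakdown 0 among 12, its receptors, phosphatases and kinases 0 among 89, and proline metabolism 0 among 10.

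In the wider list of sodium and potassium transport, 2 of 38 tested genes rose and 0 fell (5.26%, beside 1.67% over all tested genes). NHX1, the vacuolar sodium/proton antiporter, had 40.4, 37.5 and 18.6 FPKM in EX libraries, against 17.1, 7.03 and 13.8 FPKM in MT libraries (log2 difference 1.29 ± 0.29 (SE), adjusted p = 0.0294). Its call was lost without MT8r2, EX8r1 or EX8r2 (adjusted p = 0.12 to 0.16) and when 8 h was fitted alone (0.24). The lowest EX library was close to the highest MT library. LOC101261206, cation/H(+) antiporter 18, had 4.06, 3.67 and 2.68 FPKM in EX libraries, against 1.1, 0.6 and 1.59 FPKM in MT libraries (log2 difference 1.11 ± 0.19 (SE), adjusted p = 0.00396), a call lost when 8 h was fitted alone (adjusted p = 0.11). Calcium sensors and kinases gave 2 rises among 87 (2.30%). LOC101267131, a calmodulin-like protein, had 11.8, 15.3 and 9.21 FPKM in EX libraries, against 3.72, 2.67 and 4.08 FPKM in MT libraries (log2 difference 1.53 ± 0.21 (SE), adjusted p = 0.000506). The kinase CIPK9, LOC101261122, of the family that calcineurin B-like sensors switch on, had 2.13, 1.52 and 2 FPKM in EX libraries, against 0.33, 0.17 and 0.32 FPKM in MT libraries (log2 difference 1.18 ± 0.12 (SE), adjusted p = 3.90e-05).

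Hormone genes moved singly. Of 45 genes for ethylene synthesis and perception, 4 rose and 1 fell (11.1%, beside 1.67% over all tested genes), with a median log2 difference of -0.01. All 4 rises were homologs of 1-aminocyclopropane-1-carboxylate oxidase, a name shared by many oxygenases that are not known to make ethylene. The strongest, LOC101250295, had 13.2, 14.8 and 15 FPKM in EX libraries, against 1.48, 2.23 and 1.8 FPKM in MT libraries (log2 difference 2.44 ± 0.18 (SE), adjusted p = 7.24e-07). LOC101246865 had 7.99, 9.54 and 7.54 FPKM in EX libraries, against 1.43, 0.72 and 1.61 FPKM in MT libraries (log2 difference 2.07 ± 0.22 (SE), adjusted p = 3.46e-05). The gene that fell was LOC101248690, an EIN3-binding F-box protein, which in Arabidopsis targets the main ethylene factor for breakdown, with 45, 51.9 and 86 FPKM in EX libraries, against 112, 189 and 162 FPKM in MT libraries (log2 difference -1.35 ± 0.22 (SE), adjusted p = 0.00237). In jasmonate synthesis and its JAZ repressors 1 of 34 rose. It was opr3, the reductase that acts on the jasmonate precursor, with 16.6, 16.4 and 25.1 FPKM in EX libraries, against 10.7, 6.69 and 6.08 FPKM in MT libraries (log2 difference 1.22 ± 0.20 (SE), adjusted p = 0.00328). GA2ox5, which inactivates gibberellin, had 2.83, 3.2 and 4.36 FPKM in EX libraries, against 7.66, 8.67 and 15.2 FPKM in MT libraries (log2 difference -1.33 ± 0.20 (SE), adjusted p = 0.00125) and was the only call among 35 gibberellin and cytokinin genes. The calls of opr3, GA2ox5 and LOC101248690 were lost when the 6 libraries were fitted alone (adjusted p = 0.12, 0.12 and 0.13).

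Of the 1175 tested genes that the deposited table assigns to a transcription factor family, 10 differed (0.851%), 6 higher and 4 lower. The largest was LOC101268880, named MYB82 after a factor of Arabidopsis hair cells, with 2.8, 0.57 and 1.89 FPKM in EX libraries, against 12.1, 19.4 and 20.4 FPKM in MT libraries (log2 difference -2.79 ± 0.33 (SE), adjusted p = 0.000129). It was the only call among 84 MYB genes. SlSRN1, a stress-related NAC factor, had 54.2, 55.8 and 63.1 FPKM in EX libraries, against 37.2, 28.1 and 41.1 FPKM in MT libraries (log2 difference 0.70 ± 0.14 (SE), adjusted p = 0.0116), a call lost without MT8r2 or EX8r3 (adjusted p = 0.067 and 0.054). The SlSRN1 call was also lost when 8 h was fitted alone (adjusted p = 0.13). AP2/ERF factors gave 0 calls among 87 and heat stress factors 0 among 21, beside 1.67% over all tested genes. LOC109119046, named for IBH1, a growth-restraining helix-loop-helix protein of Arabidopsis, and chosen here after its values were seen, had 33.5, 34.6 and 23.4 FPKM in EX libraries, against 8.3, 6.41 and 11.2 FPKM in MT libraries (log2 difference 1.72 ± 0.25 (SE), adjusted p = 0.000934).

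The largest falls with a name included a pair of small GTPases of membrane traffic. LOC101262189, a RABH1e-like small GTPase, had 2.14, 1.88 and 1.82 FPKM in EX libraries, against 26.8, 19.9 and 31.3 FPKM in MT libraries (log2 difference -3.17 ± 0.20 (SE), adjusted p = 1.72e-07). LOC101250995, a RABE1c GTPase that the annotation marks as a low quality protein, had 0.05, 0.2 and 0 FPKM in EX libraries, against 6.06, 4.69 and 5.33 FPKM in MT libraries (log2 difference -2.55 ± 0.18 (SE), adjusted p = 5.27e-07). In both, EX libraries were far below every MT library. LOC101258158, a leucine-rich repeat receptor kinase, had 0.23, 0.22 and 0.23 FPKM in EX libraries, against 7.33, 6.37 and 6.92 FPKM in MT libraries (log2 difference -2.68 ± 0.10 (SE), adjusted p = 1.85e-10), the smallest adjusted p of the named genes. LOC101244961, an agmatine coumaroyltransferase-like gene of a family that makes defence amides, had 16, 24.6 and 16.1 FPKM in EX libraries, against 93.2, 110.5 and 129 FPKM in MT libraries (log2 difference -2.51 ± 0.37 (SE), adjusted p = 0.00118). LOC101254912, a peptide transporter of the NRT1/PTR family, had 0.61, 0.58 and 0.24 FPKM in EX libraries, against 4.88, 6.1 and 7.51 FPKM in MT libraries (log2 difference -2.27 ± 0.20 (SE), adjusted p = 6.23e-06). LOC101253466, subunit e1 of the vacuolar proton ATPase, had 2.5, 3.41 and 3.04 FPKM in EX libraries, against 13.5, 12.8 and 14.1 FPKM in MT libraries (log2 difference -1.87 ± 0.23 (SE), adjusted p = 0.0002). The last were LOC101260019, the ribosome assembly methyltransferase NEP1 (log2 difference -1.71), and LOC101258959, a tropinone reductase homolog (log2 difference -1.72).

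Among abundant genes, SAP10, a stress-associated zinc finger protein, had 290.4, 308 and 308 FPKM in EX libraries, against 484, 624 and 504 FPKM in MT libraries (log2 difference -0.82 ± 0.18 (SE), adjusted p = 0.0229). Its call was lost without MT8r2, EX8r1, EX8r2 or EX8r3 (adjusted p = 0.056 to 0.15) and when 8 h was fitted alone (0.0505). LOC101248561, named coatomer subunit beta'-2, had 660.0, 439 and 331 FPKM in EX libraries, against 228, 134 and 286 FPKM in MT libraries (log2 difference 1.15 ± 0.25 (SE), adjusted p = 0.0234). That call was lost without MT8r2, EX8r1 or EX8r2 (0.062 to 0.13) and when 8 h was fitted alone (0.24). LOC101251891, wound-induced protein 1, had 414, 241 and 442 FPKM in EX libraries, against 78.3, 128 and 126 FPKM in MT libraries (log2 difference 1.70 ± 0.24 (SE), adjusted p = 0.000753), not past the threshold when 8 h was fitted alone (adjusted p = 0.071). Among 207 cytosolic ribosomal proteins the 1 call was LOC101246068, an acidic P3-like protein, with 132, 128 and 128 FPKM in EX libraries, against 40, 42 and 56.1 FPKM in MT libraries (log2 difference 1.49 ± 0.23 (SE), adjusted p = 0.00143). Heat shock proteins had 1 rise and 2 falls among 46 (6.52%, beside 1.67% over all tested genes). The falls were Hsp90-1 and LOC101266200, an Hsp70, at log2 differences of -0.61 and -0.50, and both calls were lost after rescaling (adjusted p = 0.058 and 0.071). Leaving out 1 library ended them too, with adjusted p = 0.052 to 0.20 for Hsp90-1 (each library but EX8r2) and 0.056 to 0.13 for LOC101266200 (MT8r1, MT8r2, EX8r1 or EX8r3). Neither passed when 8 h was fitted alone (adjusted p = 0.18 and 0.12).

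Photosystem and light-harvesting proteins gave 0 calls among 66, plastid-type ribosomal proteins 0 among 43, aquaporins 0 among 26, glutathione S-transferases 0 among 39 and wound-induced proteinase inhibitors 0 among 35. Over all tested genes 1.67% differed. Among 29 carbon fixation enzymes 1 fell, a chloroplast transketolase, LOC101265735 (log2 difference -0.54). Its call was lost without MT8r1, MT8r2 or EX8r3 (adjusted p = 0.051 to 0.075) and when 8 h was fitted alone (0.074). Over the 38 lists of functions, 14 held no call, medians lay between -0.18 and 0.17 on the log2 scale, and 47 of 2198 members differed (2.14%). A galactinol synthase, LOC101244339, of the raffinose route, had 3.68, 3.44 and 4.25 FPKM in EX libraries, against 0.68, 0.73 and 1.25 FPKM in MT libraries (log2 difference 1.35 ± 0.17 (SE), adjusted p = 0.000284) and was the only call among 44 genes of trehalose, raffinose and starch breakdown. The sugar exporter LOC101255592, of the N3 (SWEET) family, had 136, 112 and 61.9 FPKM in EX libraries, against 51.3, 36.3 and 52.5 FPKM in MT libraries (log2 difference 1.08 ± 0.24 (SE), adjusted p = 0.0333), a call lost under 6 alternatives, among them each of MT8r1, MT8r2, EX8r1 and EX8r2 left out (adjusted p = 0.062 to 0.20).

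Markers of cell types and organs, mesophyll included, gave 0 calls in 7 of 9 lists, with medians from -0.20 to 0.12. A trichome acylsugar acyltransferase rose (1 of 14) and an F-box protein named for phloem protein PP2 fell (1 of 30). Summed trichome markers were 227 to 439.6 FPKM in EX and 206 to 292 FPKM in MT, and summed phloem markers 795 to 1210.5 FPKM in EX and 866 to 891 FPKM in MT. Markers of dividing cells gave 0 calls among 50, with summed levels of 1861 to 2012 FPKM in EX and 2027 to 2238 FPKM in MT. In a list made after the values were seen, 4 of 79 genes for kinesins, condensins and microtubule proteins rose and 1 fell, with a median log2 difference of -0.15. Nothing is read from that share (6.33%, beside 1.67% over all tested genes). LOC101258510, subunit 1 of the condensin complex that packs chromosomes, had 9.87, 6.14 and 7.43 FPKM in EX libraries, against 1.98, 1.28 and 1.96 FPKM in MT libraries (log2 difference 1.67 ± 0.17 (SE), adjusted p = 2.55e-05). LOC101248812, a KIN-5D kinesin, had 6.15, 5.4 and 5.76 FPKM in EX libraries, against 0.8, 0.3 and 0.71 FPKM in MT libraries (log2 difference 2.09 ± 0.20 (SE), adjusted p = 1.48e-05). The part of cell types in these differences was not tested.

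The materials also differed before salt and at 2 h, in 738 genes (4.01%; 1.95% higher and 2.06% lower in EX) and 2522 genes (13.7%; 6.22% higher and 7.48% lower in EX). Of the 307 genes, 98 (31.9%) differed in the same direction at 0 h and 11 in the opposite one, while 164 (53.4%) did so at 2 h and 5 in the opposite one. At all 3 hours 70 genes differed in 1 direction, 46 higher and 24 lower in EX. Another 105 passed at 8 h and at neither earlier hour, which does not show that they differed by less there. The 3 contrasts use separate libraries but share 1 estimate of the spread. One library at 0 h stood against its label. Of the 9 MT libraries, MT0r2 alone was above 0 (2.78 to 5.97 FPKM) for the 3 genes with at least 1 FPKM in all 9 EX libraries and 0 in at least 8 MT libraries, a rule set after the values were seen. The reason was not tested. Without MT0r2, 758 genes differed at 0 h, 105 of the 307 in the same direction and 9 in the opposite one, 79 passed at all 3 hours in 1 direction, and 274 passed the interaction against 0 h.

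The difference at 8 h was itself unlike that at 0 h for 249 genes (interaction test, 1.35% of those tested; 0.815% in the positive and 0.538% in the negative direction). Of the 307, 76 were among them. Against 2 h, 353 genes passed (1.92%; 1.27% positive and 0.652% negative), 41 of them among the 307. Nothing is read from these counts among the 307, because the interaction uses the same 8 h libraries that chose them. These counts moved with single libraries, from 120 without EX8r1 to 365 without MT0r1 against 0 h, and from 210 without MT2r1 to 456 without EX8r3 against 2 h.

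LOC101262262, a glycine-rich RNA-binding protein, stood in the opposite order at 0 h and 8 h. At 8 h it had 452, 362 and 491 FPKM in EX libraries, against 133, 112 and 112 FPKM in MT libraries (log2 difference 1.85 ± 0.13 (SE), adjusted p = 6.67e-07). At 0 h it averaged 287 ± 11.9 FPKM in EX, against 978 ± 107 FPKM in MT (SD, n = 3 each), and at 2 h 237 ± 28.9 FPKM in EX, against 423 ± 28.2 FPKM in MT (SD, n = 3 each). LOC101251891, the wound-induced protein, averaged 366 ± 109 FPKM in EX, against 111 ± 28.1 FPKM in MT at 8 h and 103 ± 16 FPKM in EX, against 249 ± 53 FPKM in MT at 0 h (SD, n = 3 each). LOC101250373, a LORELEI-like surface protein, averaged 56.2 ± 5.85 FPKM in EX, against 19.3 ± 4.44 FPKM in MT at 8 h and 40.6 ± 1.3 FPKM in EX, against 96.6 ± 27.9 FPKM in MT at 0 h (SD, n = 3 each). LOC101254097, a protein with cytochrome b561 and DOMON domains, averaged 52.5 ± 6.53 FPKM in EX, against 27 ± 2.12 FPKM in MT at 8 h and 109.9 ± 5.15 FPKM in EX, against 176 ± 34.6 FPKM in MT at 0 h (SD, n = 3 each). All 4 were among the 11 genes with opposite calls at 0 h. The coatomer gene LOC101248561, whose call at 8 h was not stable, was another. It averaged 2.88 ± 0.493 FPKM in EX, against 8.45 ± 1.16 FPKM in MT at 0 h (SD, n = 3 each), a log2 difference of -1.29 (adjusted p = 0.0061). So was the receptor kinase LOC101258158, described above as lower in EX at 8 h, which averaged 0.46 ± 0.0557 FPKM in EX, against 0.06 ± 0.0436 FPKM in MT at 0 h (SD, n = 3 each), a log2 difference of 0.46 (adjusted p = 0.0101) between low levels, with the smaller interaction adjusted p (3.19e-09, against 3.28e-08 for LOC101262262). Without MT0r2 all of these genes kept opposite calls at 0 h and their interaction calls.

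For other genes the gap at 8 h was set beside that at a single earlier hour. MYB82, LOC101268880, averaged 8.45 ± 2.27 FPKM in EX, against 8.08 ± 3.06 FPKM in MT at 0 h, and the 8 h difference was -2.88 (log2) away from it (interaction adjusted p = 0.00617). The STAY-GREEN-like gene LOC101258237 averaged 48.5 ± 4.17 FPKM in EX, against 0.43 ± 0.06 FPKM in MT at 2 h and 14.5 ± 6.91 FPKM in EX, against 0.08 ± 0.0346 FPKM in MT at 8 h, a change that did not pass (interaction adjusted p = 0.152). For cellulose synthase-like E6, LOC101268453, the averages were 44.4 ± 6.1 FPKM in EX, against 0.717 ± 0.103 FPKM in MT at 2 h and 20.9 ± 3.42 FPKM in EX, against 2.67 ± 0.533 FPKM in MT at 8 h, a change of -2.14 in the log2 difference (interaction adjusted p = 4.39e-05). DEFL1 averaged 88.3 ± 89.7 FPKM in EX, against 30.8 ± 18.5 FPKM in MT at 0 h, and its larger difference at 8 h did not pass the interaction test (adjusted p = 0.263). That mean of EX leaned on EX0r2, with 190 FPKM, beside 21.3 and 53.5 FPKM in EX0r1 and EX0r3.

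**Figure D4:**
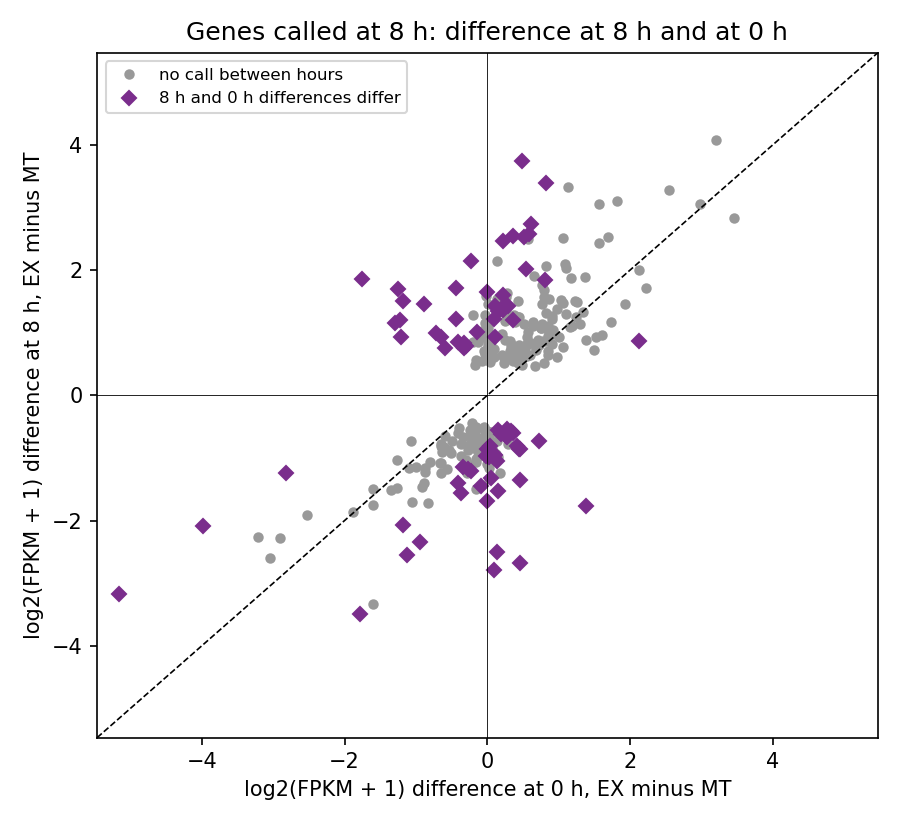
Each point is 1 of the 307 genes that differ at 8 h, with the EX minus MT log2(FPKM + 1) difference at 0 h on the horizontal axis and that at 8 h on the vertical axis. Purple diamonds are the 76 genes whose 2 differences differ by the interaction test, and points on the dashed line have equal differences.

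The genes that differed were unevenly placed on the genome. On chromosome 12, 80 of 1205 tested genes differed (6.64%) and on chromosome 7, 53 of 1368 (3.87%), against 1.78% on chromosome 6 and 0.727% to 1.47% on the other 9 chromosomes. Positions come from the deposited table, and its genome build is not given in the sources used here. When chromosomes were divided into bins of 2 Mb, 7 of the 151 bins with at least 20 tested genes had at least 10% of them called, and 55 bins had none. This rule was chosen after the values were seen and carries no test.

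The 7 bins made up 4 regions with 84 of the 307 genes among 485 tested (17.3%), 48 higher and 36 lower in EX. Elsewhere 1.24% were called, a gap at 8 h that the choice of bins by their 8 h calls builds in. The richest, from 2 to 6 Mb of chromosome 7, held 34 of 153 genes, 22 higher and 12 lower. The region from 36 to 42 Mb of chromosome 12 held 28 of 133, 17 higher and 11 lower. The start of chromosome 6, up to 2 Mb, held 15 of 132 and the stretch from 56 to 58 Mb of chromosome 7 held 7 of 67. The same regions had 19.0% of their genes called at 0 h, against 3.61% elsewhere (21.4% and 3.65% without MT0r2), and 26.6% at 2 h, against 13.4% elsewhere. With bins of 1 Mb, chromosomes 3, 6, 7 and 12 had bins past the limit, and with bins of 4 Mb chromosomes 7, 10 and 12, so that only chromosomes 7 and 12 came up at all 3 widths.

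**Figure D5:**
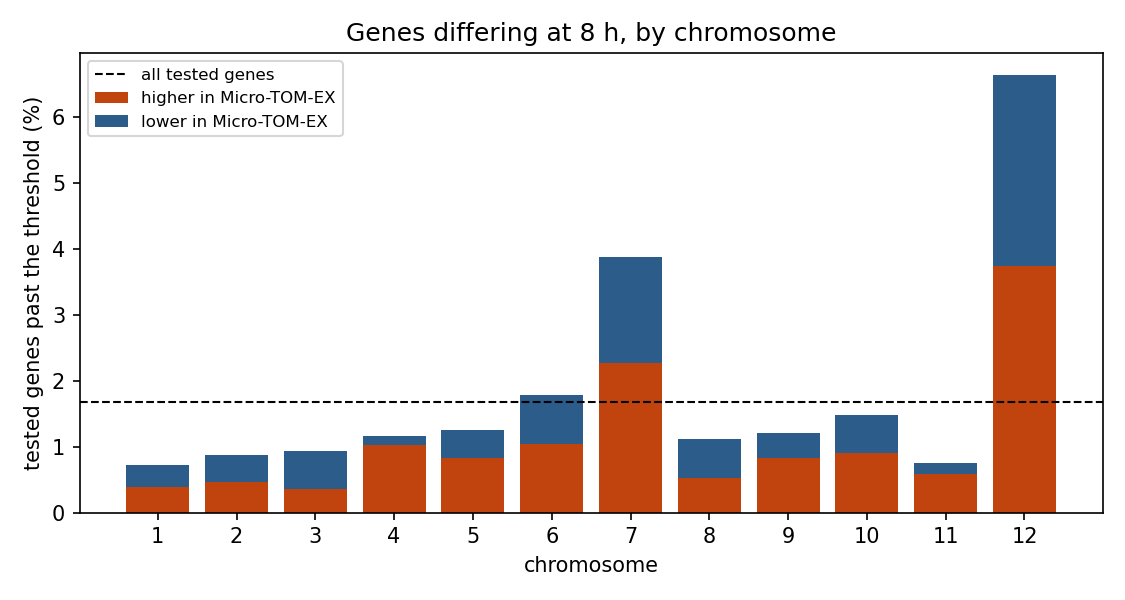
Share of tested genes that differ at 8 h on each of the 12 chromosomes, in percent, split into those higher in EX (orange, lower part of the bar) and lower in EX (blue, upper part). The dashed line is the share over all tested genes, 1.67%, and chromosomes 12 and 7 stand highest at 6.64% and 3.87%.

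Several of the genes described above lie in these regions. On chromosome 7 they include DEFL1 (chromosome 7, 2394475 to 2395559), opr3 (chromosome 7, 2549366 to 2553732), MYB82 (chromosome 7, 2710040 to 2711169), the stellacyanin-like LOC104648249 (chromosome 7, 2836062 to 2837871) and the EIN3-binding F-box gene LOC101248690 (chromosome 7, 2976030 to 2979542). On chromosome 6 they include the receptor kinase LOC101258158 (chromosome 6, 1012036 to 1015942), the zinc transporter LOC101255999 (chromosome 6, 678156 to 680741) and the copper transporter LOC101260645 (chromosome 6, 855222 to 856184). IBH1, LOC109119046, lies at chromosome 12, 41761513 to 41762459.

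Some genes were listed at 0 in every library of 1 material at 8 h. All 3 EX libraries were listed at 0 for 8 of the 307 genes and all 3 MT libraries for 10. LOC101258834 and LOC101250194 on chromosome 12, both without a known function and chosen after their values were seen, had 15.5, 16.6 and 15.5 FPKM and 8.59, 8.73 and 8.68 FPKM in EX libraries, and both were listed at 0 in every MT library of 8 h. Of the other 6 MT libraries, MT0r2 listed them at 5.97 and 2.78 FPKM, and the rest at 0. LOC101248555, on the same chromosome, was listed at 0 in every EX library, against 10.2, 12.1 and 8.78 FPKM in MT libraries. Gene models new to the annotation passed in 31 of 535 tested (5.79%, beside 1.67% over all tested genes), with 16 higher and 15 lower. The reason for the larger share was not tested. The authors' deposited table gave q under 0.05 for 622 genes of this comparison, 370 higher and 252 lower in EX, and held 273 of the 307 (88.9%) in the same direction. In turn, 43.9% of the 592 authors' calls among the tested genes were called here.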

How the data were processed

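Leaf RNA was sequenced on a BGI500 instrument after Trizol extraction, per the labels. The submitters' processing notes name RSEM 1.2.12, Bowtie2 2.2.5, DESeq2 1.4.5 and HISAT2 2.0.4 but no order or role. FPKM values per library were deposited by the authors for 23808 genes, including 761 new gene models. The same deposited table gives a log2 fold change with p-value and q-value for pairs of groups. Another 18 columns of per-sample values were not used. Names and positions come from that table, and 21978 IDs were found in a RefSeq table of a different assembly, used to name chromosomes.

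A gene entered the test (18402 did) if 3 or more libraries reached 1 FPKM. The test was limma 3.58.1 (R 4.3.3), run on log2(FPKM + 1). One model over 6 groups and 18 libraries was fitted, with a mean trend, two-sided moderated tests and Benjamini-Hochberg adjustment at 0.05. The median SE was 0.169. Interaction contrasts compared the 8 h difference with those at 0 h and 2 h.

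The genes named are the 10 largest rises and 10 largest falls with a mean of 5 FPKM or more in the higher group, no overlap and a descriptive name, the 5 largest rises and 5 largest falls in mean FPKM, up to 3 called genes of smallest adjusted p per list, the core salt genes, and the 5 called genes of smallest interaction p against 0 h. Others are marked. Members, lists and rules were chosen with earlier results of these data known. After values were seen, 3 lists were added, some search words of others were changed (a few mismatched names taken out), and the regions and their bin widths were set. Alternatives were rescaling by median ratios, filters of 5 FPKM and none, a pseudocount of 0.1, a 2-fold minimum and a replicate block. Further ones were the 8 h libraries alone, each library of the groups in a contrast left out, and the authors' q values. Same-numbered libraries deviated with r = -0.38, 0.01 and -0.04 and were treated as unpaired, though 2 pairs of unlike number deviated together (EX8r1 with MT8r3 at 0.42, EX8r2 with MT8r1 at 0.39). The labels give no batch.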

Additional observations from a re-analysis of the deposited data

Results flagged for a closer look

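The difference between the materials at 8 h was not that at 0 h for 249 genes nor that at 2 h for 353 genes, by the interaction test of limma (Benjamini-Hochberg adjusted p under 0.05). In brackets stands the 8 h difference minus the earlier one on the log2(FPKM + 1) scale, so a positive value means that EX stood higher relative to MT at 8 h than at the earlier hour.

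Against 0 h, the named genes with a positive value were LOC101262189 (1.99), LOC101254097 (1.58), LOC101248561 (2.43), LOC101262090 (0.84), LOC101244339 (1.2), LOC101250373 (2.69), LOC101251891 (2.96), LOC101262262 (3.61), LOC101253989 (1.47), LOC104645134 (2.38), LOC101244810 (2), LOC104648249 (2.2), LOC101268453 (2), LOC101255806 (2.11), LOC101245978 (2.57) and LOC101258237 (3.26). Those with a negative value were LOC101248555 (-1.72), LOC101268880 (-2.88), LOC101258158 (-3.14), LOC101250995 (-1.42), LOC101244961 (-2.64), LOC101248690 (-1.81), GA2ox5 (-1.38), Hsp90-1 (-0.96) and LOC101265735 (-0.81). LOC101262189 has a positive value although EX was lower at both hours, since its gap was wider at 0 h.

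Against 2 h, the value was positive for LOC101248555 (2.23), LOC101261122 (1.22), LOC101262090 (0.83), LOC101244339 (1.25), LOC101250373 (1.6), LOC101258510 (1.55), LOC101251891 (2.05), LOC101262262 (2.69), LOC104645110 (2.35), LOC101255806 (1.67), LOC101255210 (2.28) and LOC101245978 (2.25) and negative for LOC101258158 (-3.08), LOC101260019 (-1.1), Hsp90-1 (-1.13), LOC101265735 (-0.69), LOC101244810 (-2) and LOC101268453 (-2.14). Cellulose synthase-like E6 (LOC101268453) and LOC101244810 were thus further above MT at 2 h than at 8 h, and further above it at 8 h than at 0 h.

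Without MT0r2, a library that lists genes otherwise seen in EX, the named genes kept their calls against 0 h apart from LOC101253989 (adjusted p = 0.0597), and LOC101260645 and LOC101255210 gained one (adjusted p = 0.0171 and 0.0282).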

How the results depend on the processing

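The 307 genes at 8 h came to 156 with a 2-fold minimum and 163 when the 6 libraries of 8 h were fitted alone. By the authors' deposited q values there were 622. Leaving out single libraries of 8 h gave 188 to 341, the lowest without MT8r2. Counts at 8 h without a library of another hour, which enters only through the shared spread, are not given. The replicate block over 18 libraries gave 306, with 276 of the 307 among them. A block fitted to the 6 libraries alone, added after the data were seen, gave 17. It kept 12 of the 76 named genes that differ and 10 of the 84 in the regions. Replicate numbers did not pair the libraries (deviations correlated at -0.38, 0.01 and -0.04, but at 0.42 for EX8r1 with MT8r3 and 0.39 for EX8r2 with MT8r1, so that structure shared across materials may remain), and lost calls under it are not read as weaker effects. Against 0 h, 249 interaction calls became 165 with a pseudocount of 0.1 and 120 to 365 with libraries left out. Against 2 h, 353 became 197 with a filter of 5 FPKM, 202 with a pseudocount of 0.1 and 210 to 456 with libraries left out. Rescaling gave 196 higher and 116 lower genes at 8 h. Without the block on 6 libraries, 43 of the 76 named calls held in all alternatives apart from the 2-fold minimum, 33 were lost in at least 1, 30 of them when 8 h was fitted alone, and none reversed. Regions of 2 Mb bins held 49 calls with a 2-fold minimum and 61 to 79 with libraries left out, and chromosomes 3, 6 and 10 depended on the bin width. Low FPKM values limit precision: 103 of the 307 lie under 5 FPKM. The causes were not tested.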
